A study of Mus musculus with 2 samples.

Results

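The *Ly6* genes encode small cell surface or secreted proteins that share a three-finger fold, and most of the surface forms are held in the membrane by a glycosylphosphatidylinositol anchor. Stem cell antigen 1 (Sca1), the product of *Ly6a*, is widely used to mark stem and progenitor cells of the mouse, and in arteries it is known from endothelial cells, adventitial progenitors and smooth muscle cells that have left the contractile state. *Ly6c1*, *Ly6d*, *Ly6e* and *Ly6k* are close relatives of *Ly6a*, *Slurp1* encodes a secreted member of the family, *Cd59a* encodes an inhibitor of the complement membrane attack complex, and *Thy1* encodes a surface antigen of fibroblasts and T cells. *Thy1* shares the anchor, although its protein has an immunoglobulin fold. These 8 genes were taken by symbol from the 31053 genes of the count tables, with earlier results of these data known.

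Their levels were read from single-cell RNA sequencing of vascular smooth muscle cells (VSMCs), grown in primary culture from aortas of wild type mice for 5 days, in 2 libraries labelled as biological replicates 1 and 2. There was 1 condition, with no treatment, genotype or time to compare, so the comparisons are between classes of cells, and n = 2 libraries stands behind each mean. In these droplet libraries the molecules are counted by unique molecular identifiers (UMIs), and levels are given as CPM, the UMIs of a gene scaled to the usual common total of UMIs in every class. The tables summed to 127949633 and 132561822 UMIs, and 4866 and 6824 barcodes were kept as cells, with a minimum of 3000 UMIs and 300 detected genes and less than 20% of UMIs from mitochondrial genes. The median was 22234.5 and 16310 UMIs per cell, and 9 barcodes were shared by both libraries.

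Every cell was put in 1 of 6 classes by UMIs of genes that are no members. Endothelial cells had at least 2 UMIs in at least 2 of *Pecam1*, *Cdh5*, *Cldn5* and *Gja4* (102 and 141 cells). Cycling cells passed the same gate for *Mki67*, *Top2a*, *Cenpf*, *Birc5*, *Rrm2* and *Tyms* (1865 and 2172 cells). Of the others, 448 and 1228 cells had at least 2 UMIs of *Sox9*, a transcription factor of cartilage cells. The rest was split by *Myh11*, the myosin heavy chain of contractile smooth muscle, into cells with at least 5 UMIs (270 and 404), with 2 to 4 (187 and 195) and with at most 1 (1994 and 2684). The 11 endothelial markers summed to 4442 and 4761 CPM in endothelial cells and to at most 21.9 CPM in any other class. The 8 contractile markers summed to 25998 and 29692 CPM in cells with at least 5 *Myh11* UMIs and to 6445 and 3714 CPM in cells with at most 1. *Myh11*, which cut these classes, is one of the 8. Endothelial cells still held 2911 and 2020 CPM of the contractile markers, and whether this came from free RNA, doublets or the cells themselves was not tested.

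Of the 8 genes, 6 lie in the *Ly6* cluster of chromosome 15 (GRCm38, GENCODE M21). *Slurp1* is at chr15:74724318-74728034, *Ly6d* at chr15:74762056-74763620, *Ly6k* at chr15:74796874-74799986, *Ly6a* at chr15:74994877-74998031 and *Ly6c1* at chr15:75044018-75048830, all on the minus strand, and *Ly6e* is at chr15:74955051-74959905 on the plus strand. *Cd59a* is at chr2:104095801-104115354 and *Thy1* at chr9:44043384-44048579, both on the plus strand. All are protein coding. *Ly6k* overlaps *Gm17189* and *Slurp1* overlaps *Them6* on the opposite strand. The nearest relatives share sequence where the reads of this 3′ method fall: in the last 400 bases of the annotated transcripts, 4.19% of the 60-base words of *Ly6a* occurred in *Ly6c1* or *I830127L07Rik*, and 24.5% of those of *Ly6c1* occurred in *Ly6a* or *Ly6c2*. Counts of *Ly6a* and *Ly6c1* are therefore uncertain, by an amount that was not measured, and no such word was shared for the other 6 genes. *Ly6c2* itself had at most 0.0551 CPM in any class.

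*Ly6a* was low in contractile cells and high in endothelial cells, with the modulated classes between them. In cells with at least 5 *Myh11* UMIs it was at 88.0 CPM in replicate 1 and 31.3 CPM in replicate 2. In cells with 2 to 4 *Myh11* UMIs it was at 204 and 65.1 CPM, and in cells with at most 1 at 383 and 363 CPM. Both libraries thus placed the 3 *Myh11* classes in the same order, without overlap between the first and the last. With 2 independent values against 2, a lack of overlap has a probability of 0.33 where nothing differs, here and below. Cells with at least 2 *Sox9* UMIs had 477 and 325 CPM, cycling cells had 307 and 201 CPM, and endothelial cells had 694 and 753 CPM. The ranges of cells with at most 1 *Myh11* UMI and of *Sox9* cells overlapped, and endothelial cells lay above all others in both libraries.

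**Figure D1:**
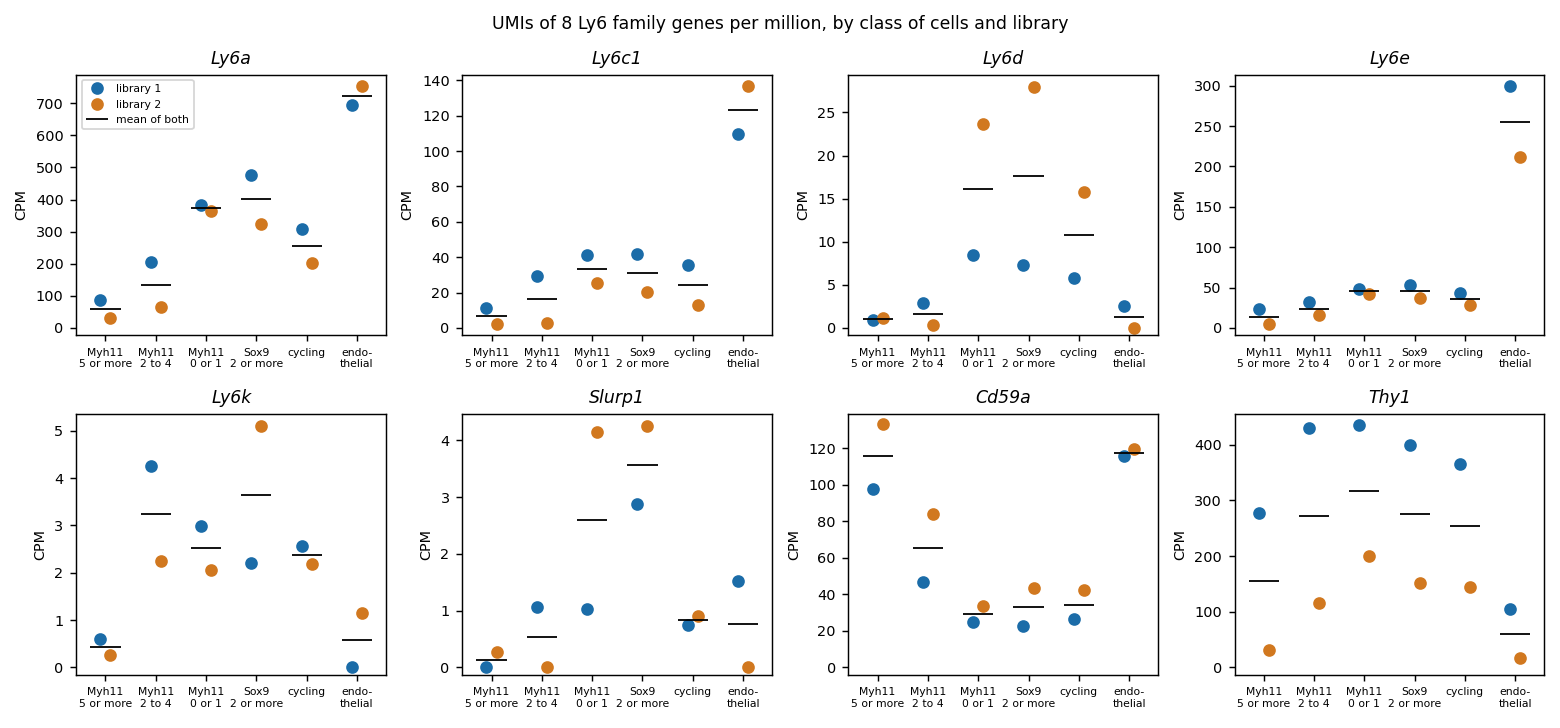
CPM of the 8 genes (vertical axes, linear, each gene with its own scale) in the 6 classes of cells (horizontal axes), with 1 point per library and a line at the mean of both. *Ly6a* runs from 59.7 CPM in cells with at least 5 *Myh11* UMIs to 724 CPM in endothelial cells, *Cd59a* is high at both ends, and *Thy1* is lowest in endothelial cells.

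The share of cells with a *Ly6a* UMI followed the levels. It was 37.4% (95% exact binomial interval 31.6 to 43.5) and 16.1% (12.64 to 20.04) in cells with at least 5 *Myh11* UMIs, against 64.6% (62.5 to 66.7) and 59.7% (57.8 to 61.6) in cells with at most 1. These intervals cover counting error only. Free RNA, estimated as at most 4.45% and 5.12% of the UMIs in a cell, would alone give a *Ly6a* UMI in 23.1% and 18.8% of cells with at least 5 *Myh11* UMIs, so that the share in replicate 2 was at the background. The level there was not. Free RNA of replicate 2 held 219.1 CPM of *Ly6a*, and at no more than 5.12% of the UMIs it would give less than the 31.3 CPM found. After each cell was thinned to 3000 UMIs, the shares were 12.9% and 5.16% in cells with at least 5 *Myh11* UMIs, 37.0% and 36.9% in cells with at most 1, and 60.8% and 55.0% in endothelial cells. The *Ly6a* UMIs were unevenly spread. In cells with at least 5 *Myh11* UMIs the upper 5% of cells held 62.2% and 77.4% of them, and in cells with at most 1 the upper 5% held 41.0% and 38.8%. A single cell of the latter class reached 188 *Ly6a* UMIs in replicate 1 and 125 in replicate 2.

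**Figure D2:**
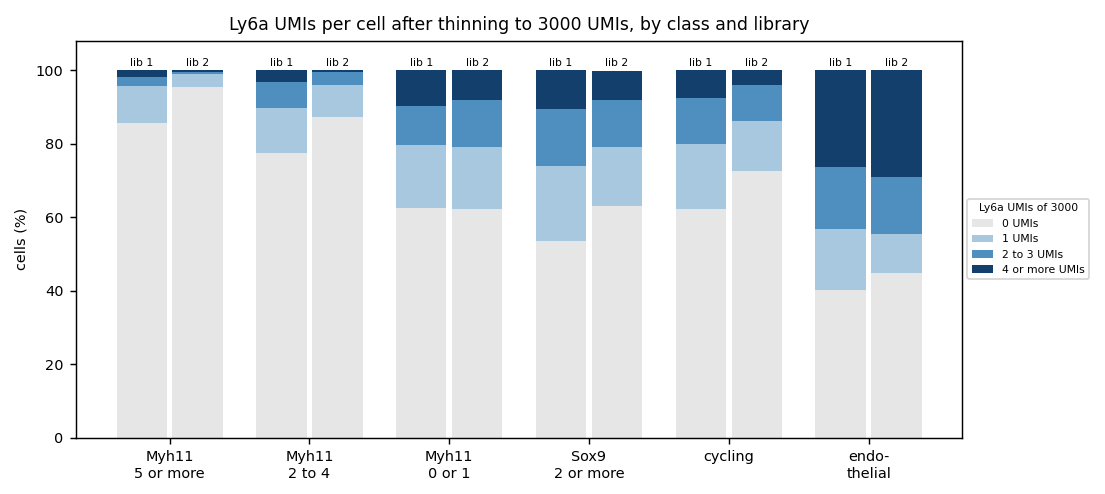
Share of cells (vertical axis, percent) with 0, 1, 2 to 3 or at least 4 *Ly6a* UMIs after each cell was thinned to 3000 UMIs, for 6 classes and both libraries. At least 4 UMIs were found in 1.85% and 0.495% of cells with at least 5 *Myh11* UMIs, in 9.73% and 8.01% of cells with at most 1, and in 26.5% and 29.1% of endothelial cells.

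The levels of cells with at most 1 and at least 5 *Myh11* UMIs were then compared across all genes with edgeR on UMI sums per library and class, where 601 of 12971 genes passed an adjusted p of 0.05 (4.63%). *Ly6a* was higher by a log2 fold change of 2.55 ± 0.61 (SE), at an adjusted p of 0.0523 by the edgeR quasi-likelihood test. It was higher in both libraries, by 2.12 and 3.53 on the log2 scale. With the library number as a block, which pairs the classes of 1 culture, the difference was 2.69 ± 0.38 with an edgeR adjusted p of 0.000953, and over all 12 alternatives the adjusted p ran from 0.000433 to 0.0776. The adjusted p was under 0.05 in 8 of these 12, of which only the block keeps the pairing. In the fit without the block, which leaves the pairing out, the call for *Ly6a* lay at the threshold. Its direction was the same in all 12. In the fit without the block 1 of the 8 genes passed, and this was *Cd59a*, which was lower (3.18% of all genes were called lower and 1.45% higher). With the block all 8 passed, 7 higher and 1 lower, where 26.7% of all genes were called, 13.3% higher and 13.5% lower. Among the 7, *Ly6d*, *Ly6k* and *Slurp1* passed the filter on low counts only through classes where they were higher than in contractile cells. Their calls are therefore a description. The median log2 fold change was 2.36 for the 8 genes and 0.02 for all genes without the block. *Ly6d*, *Ly6k* and *Slurp1* are part of that median, so it is a description too.

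*Cd59a* had the opposite order to *Ly6a* along *Myh11*. It was at 97.8 and 133 CPM in cells with at least 5 *Myh11* UMIs, at 46.7 and 84.0 CPM in cells with 2 to 4, and at 24.6 and 33.7 CPM in cells with at most 1. The first and last class did not overlap, and *Cd59a* fell by 2.08 ± 0.37 on the log2 scale with an edgeR adjusted p of 0.0201. All 12 alternatives kept this call, with adjusted p-values from 1.12e-05 to 0.0329. The share of cells with a *Cd59a* UMI was 68.9% and 84.4% in the former and 33.2% and 33.6% in the latter, against 2.64% to 3.40% that free RNA alone would give in these classes. Endothelial cells had 116 and 119 CPM, within the range of the contractile class.

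*Cd59a* and *Ly6c1* are the members with entries among the promoter windows of the RefSeq table (GRCm38.p6, 300 bases around the start of transcription), and they are shown because *Cd59a* was the 1 member called along *Myh11* and *Ly6c1* was the gene most like *Ly6a*. The table held no entry for *Ly6a*, *Ly6d*, *Ly6e*, *Ly6k*, *Slurp1* or *Thy1*. Both strands were searched for the CArG box, which binds serum response factor at contractile genes, for GAAANNGAAA, the core of the interferon-stimulated response element, and for TTCNNNGAA, the site of STAT factors. The first is at chr2:104095551-104095850 (plus strand), with its match to GAAANNGAAA in capitals, and the second at chr15:75048788-75049087 (minus strand), with no match to any of the 3 motifs. *Ly6c1* has a second start in the table, with a window at chr15:75048614-75048913 that overlaps the first, also holds no match and is not printed.
*Cd59a*: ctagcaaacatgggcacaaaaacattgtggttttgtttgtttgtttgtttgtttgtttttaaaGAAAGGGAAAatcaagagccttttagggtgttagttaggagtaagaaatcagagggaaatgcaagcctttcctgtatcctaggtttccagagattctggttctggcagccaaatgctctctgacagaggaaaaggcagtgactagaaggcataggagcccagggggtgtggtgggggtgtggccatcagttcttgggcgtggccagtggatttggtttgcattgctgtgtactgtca
*Ly6c1*: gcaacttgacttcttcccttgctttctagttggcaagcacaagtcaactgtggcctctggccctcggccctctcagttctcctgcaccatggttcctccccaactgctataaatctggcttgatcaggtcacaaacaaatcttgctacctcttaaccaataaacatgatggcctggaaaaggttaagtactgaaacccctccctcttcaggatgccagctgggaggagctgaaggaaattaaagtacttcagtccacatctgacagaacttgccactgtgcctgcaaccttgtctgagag
Over all 32851 promoter windows of the table, 1.63% held a CArG box, 3.44% held GAAANNGAAA and 8.30% held TTCNNNGAA, so that the match in *Cd59a* is one that about 1131 windows share. A match is a description of the letters and not a site of binding.

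*Ly6c1*, a marker of endothelial cells, followed *Ly6a*. It was at 11.1 and 2.23 CPM in cells with at least 5 *Myh11* UMIs, at 41.2 and 25.3 CPM in cells with at most 1, and at 109.6 and 136.5 CPM in endothelial cells. The first and the second of these did not overlap. The difference along *Myh11* was 2.25 ± 0.98 on the log2 scale and did not pass (edgeR adjusted p = 0.255), and with the block it was 2.34 ± 0.55 (edgeR adjusted p = 0.0129), the only 1 of 12 alternatives that passed. It was 1.88 without replicate 2 and 3.46 without replicate 1. For each 100 UMIs of *Ly6a* there were 10.8 and 7.0 UMIs of *Ly6c1* in cells with at most 1 *Myh11* UMI and 15.8 and 18.1 in endothelial cells. The ratio was higher in endothelial cells in both libraries, and how many *Ly6c1* reads were assigned to *Ly6a* or the reverse was not tested.

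*Ly6e*, which encodes a broadly expressed and interferon-inducible surface protein, was at 23.2 and 4.71 CPM in cells with at least 5 *Myh11* UMIs and at 48.7 and 42.1 CPM in cells with at most 1. The groups did not overlap. The difference of 1.61 ± 0.63 on the log2 scale had an edgeR adjusted p of 0.201, and with the block it was 1.75 ± 0.33 with an edgeR adjusted p of 0.0043, the only 1 of 12 alternatives that passed. It was 1.06 without replicate 2 and 3.14 without replicate 1. *Ly6e* had its highest level in endothelial cells, with 299 and 211 CPM, and 89.2% and 77.3% of these cells had a UMI.

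*Thy1* differed between the libraries as well as between the classes. Over all cells it was at 385 CPM in replicate 1 and at 154 CPM in replicate 2. In cells with at least 5 *Myh11* UMIs it was at 278 and 31.6 CPM and in cells with at most 1 at 435 and 200 CPM. Each library had less in the contractile class, but the classes overlapped across libraries. The difference was 0.95 ± 1.14 on the log2 scale (edgeR adjusted p = 0.719), and 1.41 ± 0.38 with the block (edgeR adjusted p = 0.0234). It was 0.65 without replicate 2 and 2.66 without replicate 1. The T cell markers *Cd3e*, *Cd3d* and *Cd2* summed to at most 0.0847 CPM in any class.

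*Ly6d*, *Ly6k* and *Slurp1* came from few cells. *Ly6d*, known from lymphoid progenitors and stratified epithelia, was at 0.900 and 1.18 CPM in cells with at least 5 *Myh11* UMIs and at 8.51 and 23.7 CPM in cells with at most 1, without overlap. *Slurp1* was at 0 and 0.262 CPM in the first and at 1.03 and 4.15 CPM in the second, and *Ly6k* was at 0.600 and 0.262 CPM and at 2.99 and 2.06 CPM. No *Slurp1* UMI was found in the 270 contractile cells of replicate 1, which allows a share of cells with a UMI of up to 1.11%. None of these 3 differences passed in edgeR without the block (adjusted p = 0.0805 for *Ly6d*, 0.128 for *Slurp1* and 0.106 for *Ly6k*). All passed with the block (edgeR adjusted p = 0.0018, 0.0315 and 0.0352) and with DESeq2 (0.0045, 0.0346 and 0.0264), and in no other alternative. These 3 genes entered the test only through classes where they were higher than in contractile cells, so these calls are a description. The fitted log2 fold changes were 3.83 ± 1.05, 4.06 ± 1.30 and 2.48 ± 0.74.

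Outside endothelial cells, 34 and 104 cells had at least 5 *Ly6d* UMIs, and these cells held 54.2% and 78.7% of all *Ly6d* UMIs. None of them was in the class with at least 5 *Myh11* UMIs, which held 270 and 404 of the 4764 and 6683 cells that are not endothelial. *Sox9* and cycling cells with as many *Myh11* UMIs are not in that class. One cell of replicate 1 had 53 *Ly6d* UMIs and one of replicate 2 had 159. For *Slurp1* 5 and 8 cells with at least 5 UMIs held 30.6% and 64.2% of the UMIs, and 1 cell of replicate 2 had 77 of the 313. For *Ly6k* 15 and 20 such cells held 66.2% and 60.2%. The totals of these 3 genes therefore rested on a small number of cells with many UMIs. *Ly6d* and *Slurp1* were found in the same cells (19 and 31) 3.97 and 3.74 times as often as independent detection at like depth would give, whereas *Ly6d* with *Ly6k* was at 0.988 and 1.19 times (5 and 11 cells). The keratinocyte genes *Krt14* and *Krt5* were at 0 CPM in the cells with at least 5 *Ly6d* UMIs in both libraries. In all other cells that are not endothelial, *Krt14* was also at 0 CPM and *Krt5* at 0.00860 and 0 CPM. Their absence therefore cannot tell these cells from the others. *Dsp*, also a keratinocyte marker, was at 0 and 0.779 CPM against 1.44 and 8.10 CPM in the others. *Krt5*, *Krt14* and *Dsp* summed to 9.15 and 29.6 CPM in cells with at least 5 *Myh11* UMIs, all from *Dsp*, and to 0.245 and 1.04 CPM with at most 1. The cells with at least 5 *Ly6d* UMIs hold none of that contractile class, so the difference in *Dsp* cannot speak about keratinocytes. The cells with at least 5 *Ly6d* UMIs had 584 and 657 CPM of *Ly6a* against 332 and 256 CPM in the others.

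In cells with at least 2 *Sox9* UMIs no member passed the test against cells with at most 1 *Myh11* UMI. Without the block 0 of 12971 genes passed the edgeR test (0.0%), while 169 had an unadjusted p under 0.05, 2 passed with the block (0.0154%) and 4 with DESeq2. The log2 difference of *Ly6a* was 0.09 ± 0.57 (0.03 ± 0.34 with the block), and that of *Ly6c1* was -0.12 ± 0.87. Those of *Cd59a*, *Thy1* and *Ly6k* were 0.16 ± 0.36, -0.23 ± 1.13 and 0.52 ± 0.54. Without the block the errors are wide enough to hold changes of the size seen along *Myh11* for *Thy1*. With the block *Thy1* differed by -0.31 ± 0.36 here, against 1.41 ± 0.38 along *Myh11*. A difference that did not pass does not show the classes to be alike in either fit. Within the *Sox9* class *Ly6a* still went with *Myh11*, since the small number of these cells (20 and 101) with at least 5 *Myh11* UMIs had 48.0 and 46.7 CPM and the 403 and 1064 with at most 1 had 521 and 370 CPM.

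Cycling cells had less *Ly6a* than cells with at most 1 *Myh11* UMI in both libraries, by 0.32 and 0.85 on the log2 scale, but no member passed the test, where 787 of 12971 genes did (6.07%, and 26.7% with the block). The differences were -0.57 ± 0.57 for *Ly6a* (edgeR adjusted p = 0.736, and 0.194 with the block), -0.46 ± 0.87 for *Ly6c1*, -0.34 ± 1.13 for *Thy1* and 0.20 ± 0.36 for *Cd59a*. The class mixed cells of different *Myh11* level, and within it *Ly6a* was at 75.7 and 40.9 CPM in the 183 and 374 cells with at least 5 *Myh11* UMIs and at 349 and 265 CPM in the 1557 and 1614 cells with at most 1. *Cd59a* had the reverse order there, with 88.2 and 89.1 CPM against 17.9 and 27.0 CPM. Both genes thus kept their order along *Myh11* in cells that divide.

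**Figure D3:**
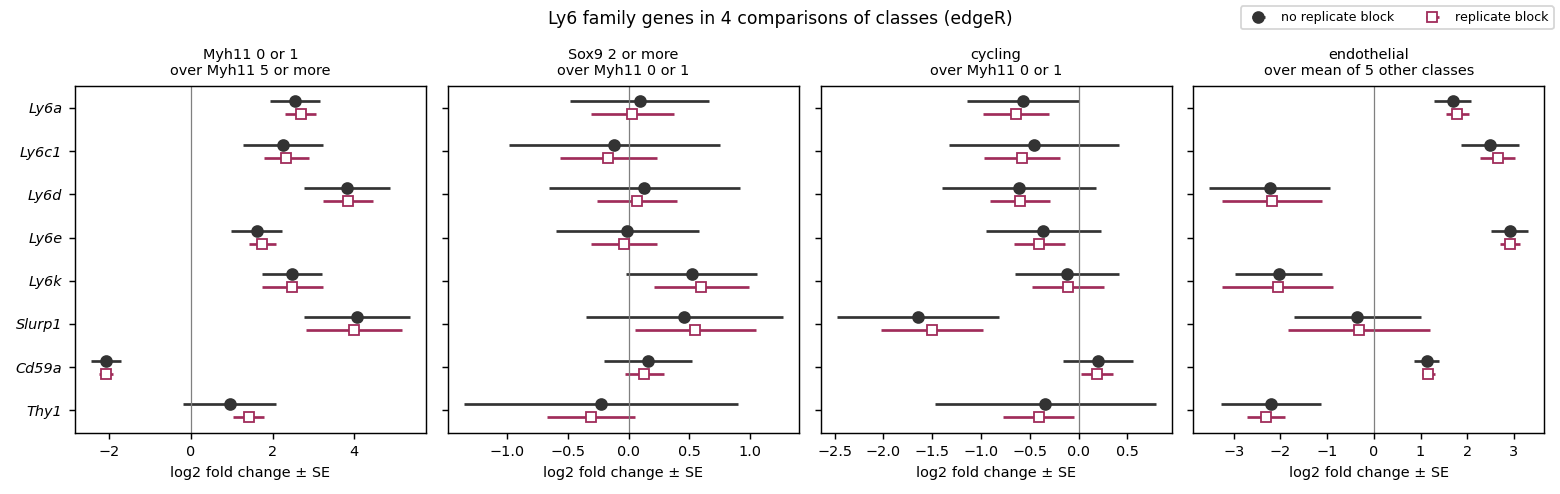
Log2 fold changes (horizontal axes, edgeR, bars show 1 SE) of the 8 genes in 4 comparisons of classes, without the replicate block (filled circles) and with it (open squares). Along *Myh11* the values run from -2.08 for *Cd59a* to 4.06 for *Slurp1* without the block, and around *Sox9* they lie within 0.60 of 0.

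Endothelial cells were above the mean of the other 5 classes in 4 of the 8 genes. Against the mean of the other 5 classes *Ly6e* was higher by 2.91 ± 0.40 on the log2 scale (edgeR adjusted p = 0.000764), *Ly6c1* by 2.48 ± 0.62 (0.0163), *Ly6a* by 1.69 ± 0.40 (0.0124) and *Cd59a* by 1.13 ± 0.27 (0.0133). Of all 12971 genes 30.6% passed in this comparison, and 16.6% were higher, so a call is common here. All 12 alternatives kept these 4 calls. *Cd59a* was not particular to endothelial cells, with 116 and 119 CPM there against 97.8 and 133 CPM in cells with at least 5 *Myh11* UMIs. Without replicate 1 the difference was 3.99 for *Ly6c1* and 2.46 for *Ly6a*, and without replicate 2 it was 1.92 and 1.46. *Thy1* was at 105 and 16.6 CPM in endothelial cells, the lowest level of any class in both libraries, with a difference of -2.20 ± 1.07 (edgeR adjusted p = 0.157) and -2.31 ± 0.40 with the block (0.00122, 1 of the 2 alternatives of 12 that passed), where 43.5% of all genes passed and 22.0% were lower. The share of endothelial cells with a *Thy1* UMI, 23.5% and 5.67%, was near the 19.2% and 6.33% that free RNA alone would give. This holds for the share and not for the level. Free RNA held 265.4 and 104.3 CPM of *Thy1* and was at most 4.45% and 5.12% of the UMIs in a cell. The levels above were higher than it alone would give, and where the other UMIs came from was not tested. *Ly6d*, *Ly6k* and *Slurp1* were at 2.55 CPM or less in endothelial cells, and none of the 3 passed with or without the block.

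Of 34 other genes of the Ly6/uPAR family that were listed, 32 were in the tables, 10 of them had no UMI in any class and 6 passed the filter on low counts. In endothelial cells *Plaur* and *Ly6g6d* were called higher and *Lynx1* lower, where 16.6% of all genes were called higher and 14.0% lower. *Gpihbp1* was also called higher, but it passed the filter only through the class where it is high. These calls are therefore not read as a result about the family. *Gpihbp1*, which anchors lipoprotein lipase on capillary endothelium and is given as a description, had 16 and 18 UMIs in endothelial cells (8.15 and 10.3 CPM) and 1 UMI in the other classes of both libraries together. *Plaur*, the urokinase receptor, was at 66.8 and 112.5 CPM in endothelial cells, with a log2 difference of 1.34 ± 0.39 (edgeR adjusted p = 0.0287). *Plaur* was also high in cells with at least 5 *Myh11* UMIs, at 49.6 and 72.3 CPM against 16.8 and 23.45 CPM in cells with at most 1, a difference of -1.69 ± 0.53 that did not pass (edgeR adjusted p = 0.118) and that passed in 3 of 12 alternatives, among them the block (0.000392) and DESeq2 (0.027). *Ly6g6d* rested on 7 and 21 UMIs in endothelial cells and overlaps *Ly6g6e* on the other strand. *Lynx1*, a modulator of nicotinic acetylcholine receptors, was lower in endothelial cells by a log2 difference of -1.19 ± 0.24 (edgeR adjusted p = 0.00654, at most 0.0589 and under 0.05 in 11 of 12 alternatives), with 15.8 and 7.995 CPM there and 18.1 to 29.8 CPM elsewhere.

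*Ly6a* was then related to *Lum* and *Pdgfra* within the cells with at most 1 *Myh11* UMI. *Lum* encodes the matrix proteoglycan lumican and *Pdgfra* a growth factor receptor of fibroblasts, and both mark modulated VSMCs. After thinning to 3000 UMIs, a *Pdgfra* UMI was found in 22.6% and 23.3% of cells without *Ly6a* and in 33.0% and 37.7% of cells with at least 4 *Ly6a* UMIs. For *Lum* the shares were 20.7% and 34.6% without *Ly6a* and 19.6% and 40.0% with at least 4 UMIs. The share for *Pdgfra* was thus higher with *Ly6a* in both libraries, whereas that for *Lum* was higher in replicate 2 only. The level of *Lum* had no common order over the bins: from 0 to at least 4 *Ly6a* UMIs it was 111, 135, 113 and 107 CPM in replicate 1 and 225, 224, 204.5 and 205 CPM in replicate 2. These bins held 1249 and 1667 cells without *Ly6a* and 194 and 215 with at least 4. Their cells differed in total UMIs before thinning, with medians of 17978 and 12620 without *Ly6a* and 20426.5 and 16013 with at least 4.

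**Figure D4:**
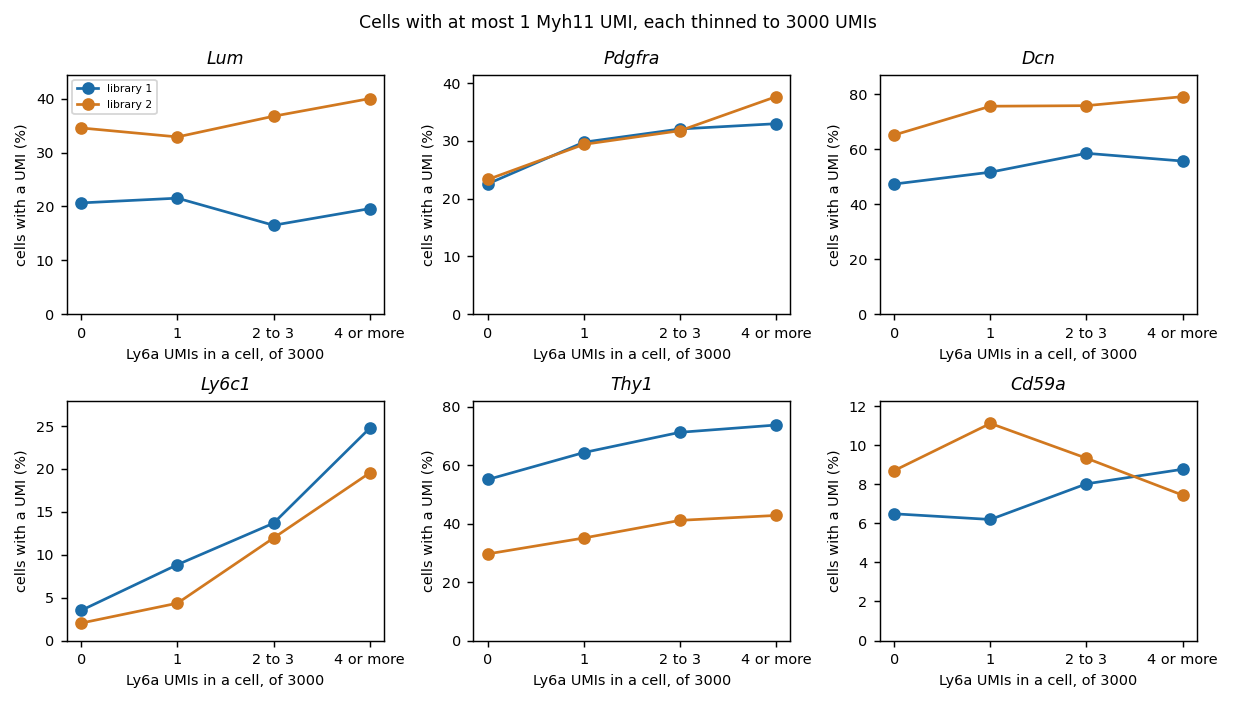
Share of cells with a UMI (vertical axes, percent, from 0) of 6 genes by the number of *Ly6a* UMIs in the cell (horizontal axes), in cells with at most 1 *Myh11* UMI thinned to 3000 UMIs, with 1 line per library. *Ly6c1* runs from 3.52% and 2.04% to 24.7% and 19.5%, *Pdgfra* from 22.6% and 23.3% to 33.0% and 37.7%, and *Cd59a* lies between 6.19% and 11.1%.

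Counted without thinning, in 20 bins of like total UMIs, *Ly6a* and *Lum* were found together in 34.7% and 41.8% of these cells, 1.02 and 1.05 times the share that independent detection would give. For *Ly6a* and *Pdgfra* the cells with both were 50.6% and 43.1%, or 1.03 and 1.06 times. For *Ly6a* and *Ly6c1* the ratio was 1.26 and 1.33. Of these cells 64.6% and 59.7% had a *Ly6a* UMI. The shares that independent detection would give were 33.8% and 39.7% for *Lum* and 49.1% and 40.6% for *Pdgfra*. Over all cells that are not endothelial the ratio was 1.06 and 1.20 for *Lum* and also for *Pdgfra*, a set that holds the contractile cells as well.

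To compare more genes, cells with at most 1 *Myh11* UMI were ranked by *Ly6a* UMIs within bins of like depth, and the upper 25% was set against the lower 25% (494 and 660 cells in each, median total UMIs 18601.5 and 13336 in the upper and 18618 and 13325 in the lower). *Ly6a* itself was left out. Without the block 0 of 11970 genes passed the edgeR test (0.0%), with 371 genes at an unadjusted p under 0.05 and 20 genes past the threshold with DESeq2. With the block 1111 genes passed (9.28%), of which 608 were higher (5.08%) and 503 lower (4.2%) in the upper 25%. The 4 sums leave 1 residual degree of freedom with the block, so that its p-values rest on the spread shared over genes.

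Of the 7 other members, 6 were higher in the upper 25% with the block and 1 did not pass, where 5.08% of all genes were higher. Without the block 0 of the 7 passed. *Ly6c1* was at 109 and 70.3 CPM in the upper and at 7.34 and 4.35 CPM in the lower 25%, a log2 difference of 3.92 ± 0.38 (edgeR adjusted p = 1.0, and 9.15e-16 with the block). *Ly6d* was at 21.5 and 53.4 against 1.69 and 8.19 CPM, and *Ly6e* at 67.0 and 55.3 against 31.4 and 29.0 CPM. *Thy1* was at 526 and 225 against 374 and 151 CPM, a difference of 0.50 ± 0.60 (edgeR adjusted p = 1.0, and 1.29e-06 with the block), and *Cd59a* was at 28.2 and 32.7 against 23.4 and 35.7 CPM (edgeR adjusted p = 0.879 with the block). *Slurp1* was at 2.27 and 13.9 against 0.298 and 0.622 CPM. *Ly6k* was at 1.38 and 3.21 against 0.198 and 1.24 CPM. *Slurp1* and *Ly6k*, which are counted in the 6 above, passed the filter on low counts only through the upper 25%. Their calls are therefore given as a description. Cells with at most 1 *Myh11* UMI held 2 and 7 of the 5 and 8 cells with at least 5 *Slurp1* UMIs. *Ly6c1* shares words with *Ly6a*, as given above.

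The fibroblast and modulated list had 7 of 11 tested genes higher and 0 lower with the block, where 5.08% of all genes were higher and 4.2% lower. Without the block 0 of the 11 passed. *Pdgfra* was at 146 and 148 CPM in the upper and at 96.15 and 95.03 CPM in the lower 25%, without overlap, a log2 difference of 0.61 ± 0.11 (unadjusted p = 0.00343, edgeR adjusted p = 1.0, and 6e-07 with the block). *Lum* was at 122.7 and 224 against 112.6 and 195 CPM, a difference of 0.16 ± 0.38 (edgeR adjusted p = 1.0, and 0.12 with the block). *Dcn*, the proteoglycan decorin, was at 515 and 877 against 350 and 601 CPM, and *Pi16*, of adventitial fibroblasts, at 6.23 and 3.94 against 1.59 and 1.97 CPM. Median log2 differences were 0.35 for this list and 0.00 for all genes.

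Of the contractile list 6 of 8 genes were lower with the block, where 4.2% of all genes were lower, and 0 without it. *Myh11*, whose UMIs chose these cells, is 1 of the 6 (-0.89 ± 0.23, edgeR adjusted p = 0.0168 with the block). Its call is therefore a description. *Acta2*, smooth muscle actin, was lower by a log2 difference of -1.17 ± 0.11 (edgeR adjusted p = 2.18e-07 with the block), *Tagln* by -1.28 ± 0.13 and *Cnn1* by -1.58 ± 0.12, while *Smtn* (-0.05 ± 0.08) and *Synpo2* (-0.34 ± 0.30) did not pass. The median of the 8, with *Myh11* included, was -0.95 without the block. Cells were chosen to hold at most 1 *Myh11* UMI, so this order lies within the least contractile class. Of 9 interferon-stimulated genes 6 were higher with the block, where 5.08% of all genes were higher, and 0 without it. The libraries gave unlike values for some of them, and this difference was not tested. *Isg15* was at 116 against 41.7 CPM in replicate 1 and at 30.9 against 26.2 CPM in replicate 2, and *Ifit1* at 29.5 against 7.44 CPM and at 12.1 against 12.8 CPM. Of 5 chondrocyte genes tested with the block 1 was higher and 1 lower, where 5.08% of all genes were higher and 4.2% lower. The higher gene was *Comp*, with a log2 ratio of 1.33 in replicate 1 and 0.24 in replicate 2. The lower gene was *Acan*, which passed the filter on low counts only through the cells low in *Ly6a*. Its call is therefore a description. *Sox9* (0.18 ± 0.16) did not pass. Cells with at least 2 *Sox9* UMIs were kept out of this class, so the comparison cannot show how *Ly6a* goes with *Sox9*.

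**Figure D5:**
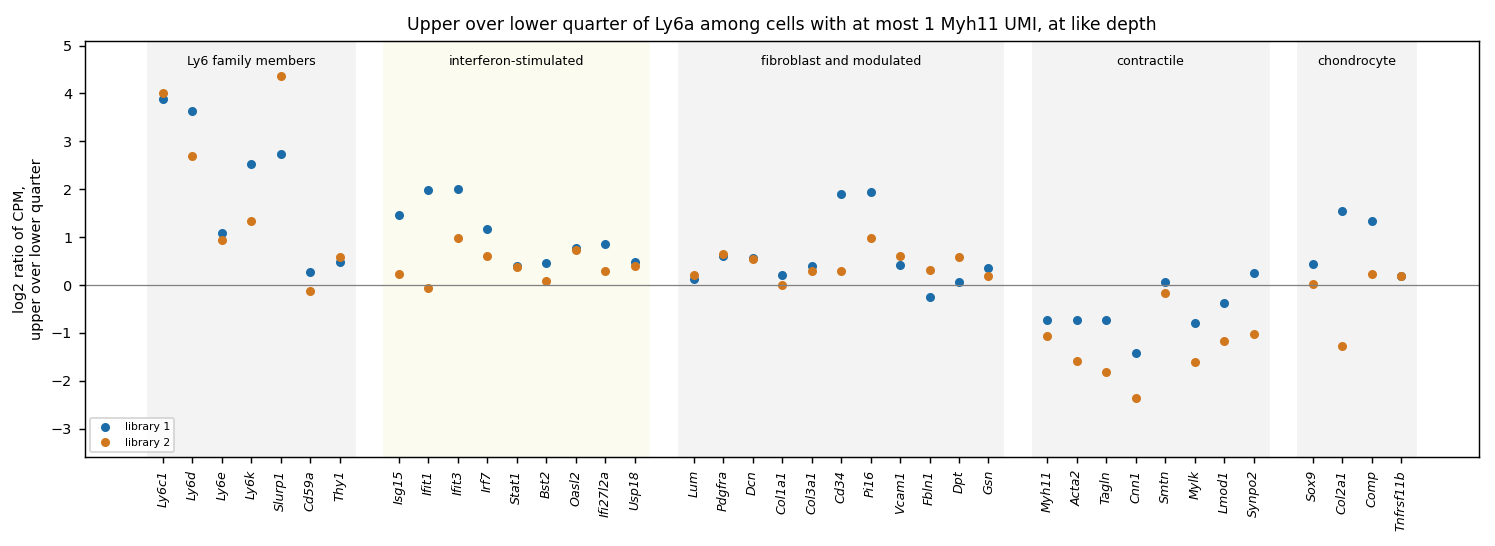
Log2 ratio of CPM (vertical axis) between the upper and the lower 25% of *Ly6a* in cells with at most 1 *Myh11* UMI, for members and 4 gene lists (horizontal axis), with 1 point per library. *Ly6c1* lies at 3.88 and 4.0, *Pdgfra* at 0.60 and 0.64 and *Acta2* at -0.73 and -1.59, and *Acan*, with no UMI in the upper 25%, is not drawn.

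With the block, the 5 largest increases were those of *Slurp1*, *Ly6c1*, *Clec3b*, *Ly6d* and *Gda*, of which 3 are members. *Slurp1*, *Clec3b* and *Gda* passed the filter on low counts only through the upper 25%, so their places here are a description. *Clec3b*, a gene of adventitial fibroblasts, was at 8.89 and 12.7 CPM in the upper and at 0.992 and 1.76 CPM in the lower 25%. The 5 adventitial markers (*Pi16*, *Cd34*, *Dpp4*, *Clec3b* and *Scara5*) summed to 58.2 and 53.5 CPM in the upper and to 21.8 and 29.7 CPM in the lower 25%. Among them *Cd34* was at 17.5 and 18.9 against 4.66 and 15.3 CPM. *Dpp4* was at 0.198 and 0.104 against 0.0992 and 0.622 CPM, so it went the other way in replicate 2. The 5 largest decreases were those of *Bcl2a1b*, *Acan*, *Kprp*, *Mmp12* and *Cybb*. All 5 passed that filter only through the lower 25%, so they too are a description. *Mmp12*, a macrophage elastase, was at 0.198 and 0.207 CPM in the upper and at 13.0 and 31.5 CPM in the lower 25%, and *Cybb*, of the phagocyte oxidase, was at 0.0988 and 0.311 against 2.88 and 5.80 CPM. *Bcl2a1b*, *Acan* and *Kprp* had no UMI in the upper 25%. The 5 macrophage markers summed to 14.5 and 12.9 CPM in the lower and to 5.63 and 8.91 CPM in the upper 25%, and the part of such cells in the result was not tested.

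Across the same cells, the 10 genes whose level was most like that of *Ly6a* among 8242 genes were *Ly6c1* (Pearson r 0.472 in replicate 1 and 0.429 in replicate 2), *Sned1* (0.303 and 0.293), *Serpinb1a* (0.312 and 0.262), *Pcolce2* (0.247 and 0.252), *Timp2*, *Cygb*, *Fth1*, *Il4ra*, *Ogn* and *Mettl7a1*. They were ranked by the lower r of both libraries, of log counts less the mean of 20 bins of like depth. *Pdgfra* was in place 38 (0.138 and 0.142) and *Lum* in place 1051 (0.0255 and 0.0472), and *Tagln* came last (-0.26 and -0.3). The points are cells that share a library, so these values are a description. Most are weak.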

How the data were processed

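The authors deposited raw UMI counts per gene and barcode, not normalised, from Cell Ranger (version 3.0.2 per the submitters' processing notes, 3.0.2 and 3.1.0 per the file headers) on mm10. Empty droplets were included. The filters on cells are given above, and doublets were not called. Members and gene lists were chosen with earlier results of these data known. UMI sums of 6 classes and 2 libraries were tested in R 4.3.3 with edgeR 4.0.16, using TMM factors, genes kept by filterByExpr, the quasi-likelihood test and an adjusted p (Benjamini-Hochberg) of 0.05. Dividing a log2 fold change by the root of its F value gave the SE. Cells were not used as replicates. Sums of 1 library come from 1 culture, so their numbers pair them, and same-numbered deviations from class means correlated at 0.34 to 0.87 (15 pairs) and at 0.764 for the *Ly6a* ranks. Free RNA was taken from barcodes with 1 to 100 UMIs and scaled by the 4 endothelial gate genes in cells with at most 1 *Myh11* UMI. The gene names matched GENCODE M21 for 30934 of 31053 identifiers. Named beside the members were 34 family genes, the listed genes, the 10 genes most like *Ly6a*, and the 5 largest changes in each direction, which came from the fit with the block because 0 genes passed without it. The fits without the block were tested on simulated data. Along *Myh11* and between the *Ly6a* ranks they recovered 26% and 28% of 2-fold changes and 94% and 93% of 4-fold changes. Most 2-fold changes were thus missed. DESeq2 1.42.0 was an alternative.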

Additional observations from a re-analysis of the deposited data

Results flagged for a closer look

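*Ly6a* was found in barcodes that were not counted as cells. In barcodes with 1 to 100 UMIs it was at 243.9 CPM in replicate 1 and 219.1 CPM in replicate 2, above its level in cells with at least 5 *Myh11* UMIs. In barcodes with at least 3000 UMIs and 20% or more mitochondrial UMIs (87 and 59 barcodes) it was at 34.35 and 40.54 CPM, from 14 and 13 UMIs. The study has no control samples, and both values are above 3 counts.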

How the results depend on the processing

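With 2 libraries and 1 library per sum, p-values rest on few degrees of freedom, sparse genes (*Ly6d*, *Ly6k*, *Slurp1*) rest on few cells, and no count of genes could be given with a library left out, since 1 library leaves no residual degrees of freedom. Values with a library left out are log2 ratios of the other one, with no test. Counts of genes past the threshold, 601 along *Myh11*, 0 for *Sox9*, 787 for cycling cells, 3969 for endothelial cells and 0 for the upper against the lower 25% of *Ly6a*, became 3469, 2, 3461, 5640 and 1111 with the replicate block. With DESeq2 the first 3 became 1350, 4 and 1427 and the last 20. After thinning to 3000 UMIs the first 4 became 400, 1, 498 and 2335. With *Myh11* classes of at least 10 and of 0 UMIs the first 2 became 1290 and 1, and with *Sox9* cells taken before cycling cells the second became 296. The cause of these moves was not tested.

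*Ly6a* along *Myh11* passed the threshold at log2 differences of 2.54 with DESeq2 size factors, 2.58 without a filter on low counts, 2.69 with the replicate block, 2.54 with DESeq2, 2.54 after thinning, 2.56 under 10% mitochondrial UMIs, 3.33 with the *Myh11* classes of at least 10 and of 0 UMIs, and 2.56 with *Sox9* cells first. Without a library *Ly6a* ran from 2.12 to 3.53 there, from -0.16 to 0.32 for *Sox9*, from -0.85 to -0.32 for cycling and from 1.46 to 2.46 for endothelial cells. *Pdgfra* between the *Ly6a* ranks was at 0.61 with the block, where it passed, and from 0.60 to 0.64 without a library, and *Lum* from 0.12 to 0.20. Over all cells that are not endothelial, *Ly6a* was found with *Lum* at 1.13 and with *Pdgfra* at 1.13 times the expected share.

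The sign turned only in differences that did not pass in either setting. For *Sox9* cells, with these taken before cycling cells, *Ly6a* was at -0.10, *Ly6d* at -0.08 and *Slurp1* at -0.08. After thinning *Ly6c1* was at 0.06 and *Ly6e* at 0.17, and *Ly6e* was at 0.00063 with a cycling gate of 1 gene. For cycling cells *Ly6k* was at 0.05 without the 5% deepest cells, at 0.62 with the gate of 1 gene and at 0.07 with *Sox9* cells first. Between the *Ly6a* ranks *Lum* was at -0.05 after thinning and at -0.00047 without the 5% deepest cells, and *Cd59a* was at -0.04 in cells of 10000 to 30000 UMIs and at -0.05 in matched cells with and without *Ly6a*. The block, which pairs the classes of 1 library, changed no call of a member other than those given in the report.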
